A study of Mus musculus with 4514 samples.

Results

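Single hepatocytes from juvenile mouse liver were compared at postnatal day 24 (P24) and postnatal day 30 (P30). They were chosen by the age in their labels, run from P24_1 to P24_178 and from P30_1 to P30_135 with no number missing, and make up 6.93% of the 4514 samples of the series. Every cell came from the genotype Alb-Cre; Rosa-tdTomato, in which the albumin promoter drives the recombinase in hepatocytes and the reporter marks the cells it has acted in. The labels give no treatment, ploidy or zonation sort for either age, and none gives a sex. Each cell was picked singly into lysis buffer and processed with mSTRT-seq, in which barcoded cDNA from many wells is pooled before 1 library is built. No label names an animal, a litter or a plate, so each age is 1 pool. Differences between the pools therefore have no replicate check, and no p-value is given. Age, animal, day of isolation and library cannot be told apart.

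The hepatocyte makes most plasma proteins, handles fats and sugars and detoxifies foreign compounds. In the mouse these ages follow weaning, when the diet shifts from fat-rich milk to carbohydrate-rich chow and when fat synthesis is known to be switched on. Puberty then begins to set the sex-specific expression of many liver genes through the pattern of growth hormone release. The acute phase response is a separate program, in which interleukin-6 and interleukin-1 acting on hepatocytes raise serum amyloid A (Saa) and orosomucoid (Orm) genes. Cells near the portal vein and cells near the central vein differ in many of these genes.

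A level below is the mean over the cells of a pool of CPM, a gene's counts scaled to 1000000 per cell after the ERCC spike-in RNAs were dropped. A count may be a read or a molecule, which the sources used here do not say. Cells held a median of 243986 counts at P24 (range 38950 to 748754) and 199943 at P30 (range 27500 to 657600). The pool totals were 47527661 and 28091891 counts. All 20 genes of a hepatocyte list, among them Alb, Apoa1, Ttr and Hnf4a, were measured and 0 passed 2-fold in either direction. The Y-linked gene Ddx3y had a count in 97.2% of P24 cells and 96.3% of P30 cells, at levels of 73.5 and 70.9 CPM. The X-inactivation RNA Xist had 5 counts in all P24 cells and 0 in P30 cells, so both pools held Y-linked RNA and next to no Xist.

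A gene was called measured when the mean of its 2 pool levels was at least 5 CPM and at least 10% of all P24 and P30 cells had a count. A gene under 5 CPM in 1 pool was thus measured only through its level in the other, which favours a call for such genes. Of 8166 measured genes, 1.74% were at least 2-fold higher at P30 and 1.38% at least 2-fold lower, on the scale log2((P30 + 1)/(P24 + 1)). The median over all measured genes was -0.05 on that scale, with 3453 genes above 0 and 4713 below. Past 4-fold there were 38 higher and 34 lower genes. The lists of the exocrine pancreas, acute phase, fatty acid synthesis and interferon response together held 24.6% of the higher genes. The lower genes were led by globins, cytochromes P450 of the Cyp2c and Cyp3a families, Serpina1e, the inhibitors of differentiation Id3 and Id1, and genes of the cell cycle.

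**Figure D1:**
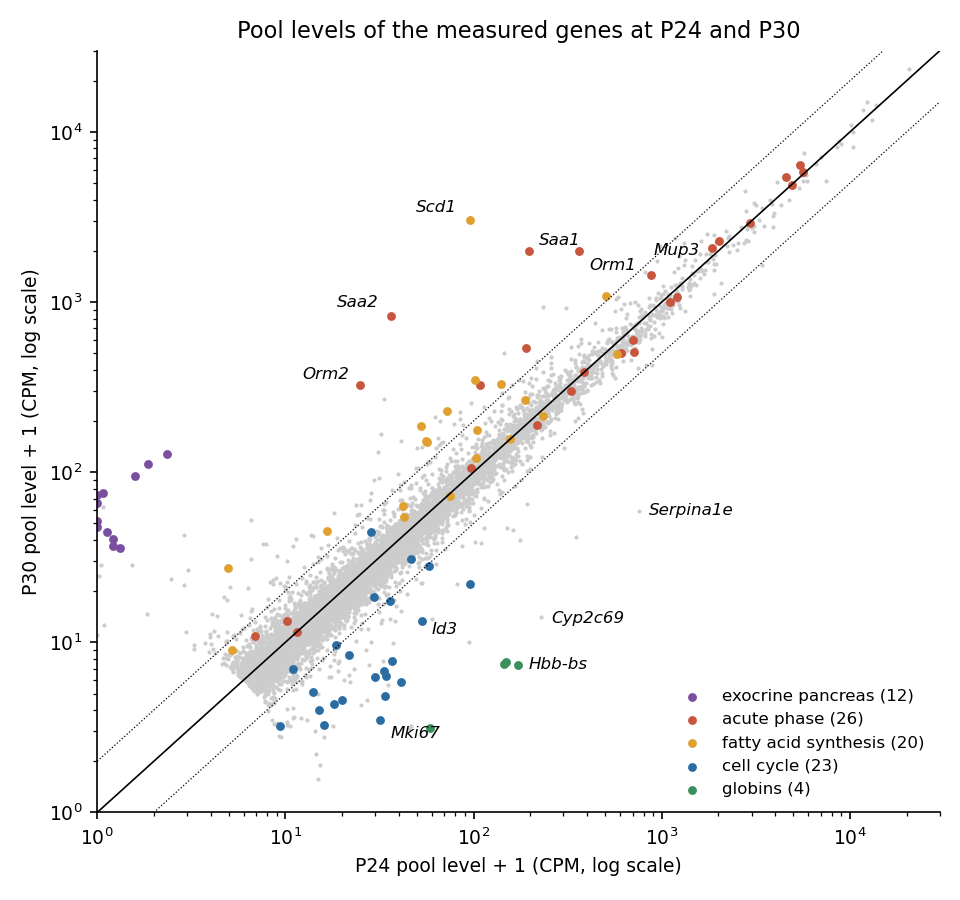
Pool level of each of the 8166 measured genes at P24 (horizontal axis) and P30 (vertical axis), in CPM + 1 on log scales. The solid line marks equal levels and the dotted lines 2-fold. Scd1, Saa1, Saa2, Orm1 and Orm2 lie above the upper dotted line, the 12 exocrine pancreas genes lie at the left edge, and the cell cycle and globin genes lie mostly below the lower line.

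Cells of 1 age were not alike along the numbers in their labels, whose meaning the labels do not give. ERCC RNAs took 0.711% of all counts at P24 and 0.317% at P30. At P24 the spike-in share fell into separate classes: P24_1 to P24_121 lay between 0.591% and 3.32%, and the 57 cells from P24_122 to P24_178 between 0.107% and 0.415%. They are called the high and the low spike-in class below. The low class was also deeper, with a median of 349334 counts against 205381. As a measure of this spread each age was divided into 4 stretches of consecutive numbers, and a gene was called apart when every P30 stretch lay above, or every stretch below, all 4 P24 stretches. Of the 8166 measured genes 5.60% were apart upward and 6.11% downward. Among the called genes 83.8% of the higher and 57.5% of the lower ones were apart. The stretches hold the same cells that made the calls, so called genes are apart more often than others by construction. A stretch is not a replicate, and being apart describes the spread along the labels only. Against each P24 spike-in class alone, 66.9% of the higher and 58.4% of the lower genes kept 2-fold in the same direction. With only the low class as P24, higher calls over all genes were 2.06 times and lower calls 1.35 times as many. With only the high class they were 0.923 and 1.31 times as many. A list count against 1 class is to be read beside these ratios.

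**Figure D2:**
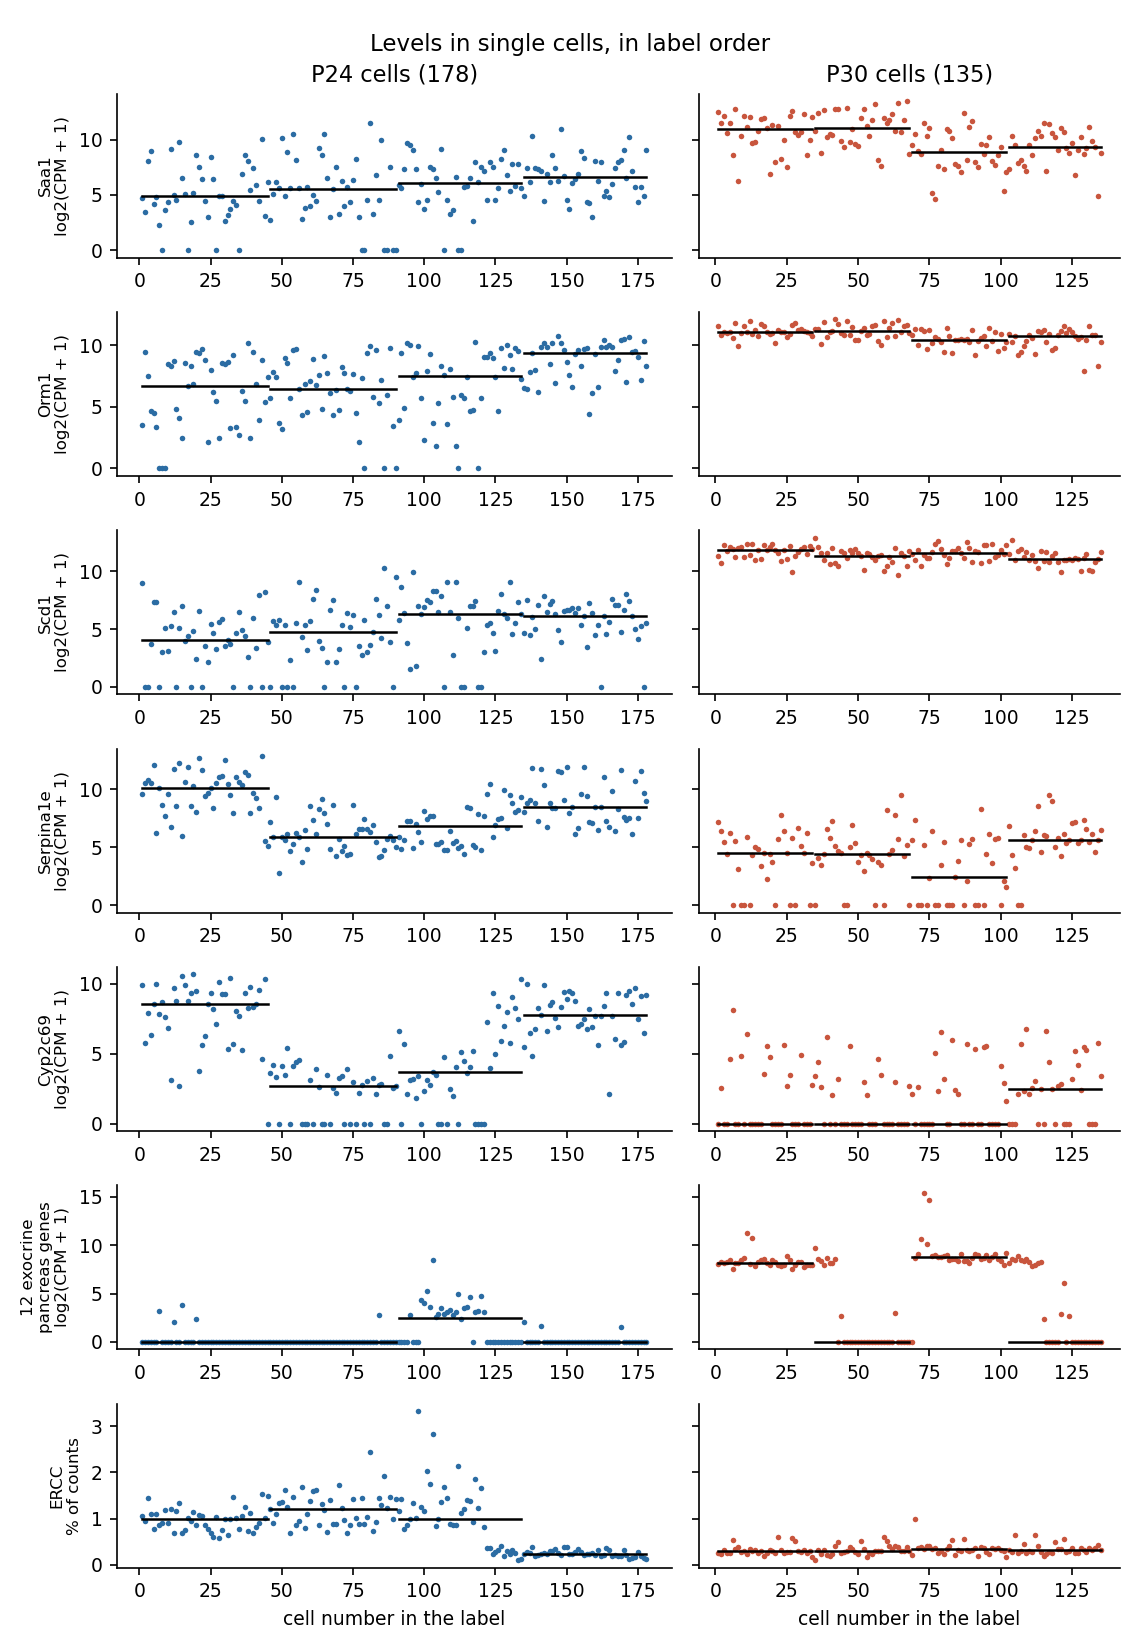
Levels in the single cells of P24 (left) and P30 (right) against the cell number in the label, for 5 genes and the sum of 12 exocrine pancreas genes as log2(CPM + 1), and the ERCC share as percent of counts. Each point is 1 cell and each black line the median of 1 of 4 stretches. Scd1 and Orm1 are high in every P30 stretch, Serpina1e and Cyp2c69 are high at P24 in the first and last stretches, and the exocrine RNAs step on and off along the P30 numbers.

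The largest folds belonged to digestive enzymes of the pancreatic acinar cell, which hepatocytes are not known to make. Of the 15 largest rises 14 were RNAs of secreted pancreatic proteins and 1 was Scd1. Among them were Pnlip (pancreatic lipase), Ctrb1 (chymotrypsinogen), Clps (colipase) and Reg1. Pnlip had 0 counts in the P24 cells, which allows a level of up to 0.0631 CPM and a share of cells with a count of up to 1.69%, and does not limit how many cells held the RNA at a lower level. At P30 its level was 72.1 CPM, with a count in 65.2% of cells (exact 95% interval 56.5 to 73.2%). Such intervals treat the cells as independent draws from this pool and do not cover the blocks along the label numbers or differences between animals. Ctrb1 went from 1.35 to 127.4 CPM. A cell with a count in at least 3 of 12 exocrine genes, a list put together after the values were seen, was called a cell with exocrine RNA. There were 6 such cells at P24 and 88 at P30.

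The exocrine signal came in blocks. In the 4 P30 stretches 34 of 34, 8 of 34, 33 of 34 and 13 of 33 cells had it. Among the 88 cells the summed level had a median of 347 CPM, and 2 cells stood far out at 27280 and 43960 CPM. The 2 highest cells carried much of the pool value: the P30 mean was 794 CPM with them and 270 CPM without them. Insulin, Ins2, a hormone of pancreatic beta cells, was at 0.843 CPM at P24 and 13.7 CPM at P30, with 21.1 CPM in the P30 cells with exocrine RNA and 0 in the others. Other ages held exocrine RNA too, with 80.9% of cells at E17.5, 65.5% at P0 and 74.1% at P60. Without the cells with exocrine RNA at both ages, 76.1% of the higher and 93.8% of the lower genes kept 2-fold. The 12 genes that define those cells lose 2-fold by construction, and 83.1% of the other higher genes kept it. Where a call below ended without those cells, the value without them is given.

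Acute phase genes split sharply by gene. Of 28 listed, 26 were measured, 6 were past 2-fold higher (23.1%, against 1.74% of all measured genes) and 0 lower. Those 6 were Saa2, Orm2, Saa1, Orm1, Lcn2 and Pigr. The median of the 26 was 0.16 (log2), and several abundant members did not pass 2-fold: the fibrinogen gene Fgb was at 5649 and 5823 CPM, haptoglobin Hp at 4544 and 5441 CPM, and C-reactive protein Crp at 603 and 500.5 CPM. The difference was therefore in a subset and not in the list as a whole.

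Saa1 encodes serum amyloid A1, an apolipoprotein of high-density lipoprotein whose level in blood climbs steeply in inflammation. Over the P24 cells its level ran from 0 through a median of 56.5 to 2975 CPM. Over the P30 cells it ran from 23.5 through 1250 to 11824 CPM. The ranges overlapped, but the P30 lower quartile, 410 CPM, was above the P24 upper quartile, 185.1 CPM. The pool level was 195.9 CPM at P24 and 1995 CPM at P30, a log2 difference of 3.34 or 10.1-fold, with a count in 92.7% and 100% of cells. Summed counts gave 196.4 CPM (exact Poisson 95% interval 192.4 to 200.4) and 1793 CPM (1777 to 1809), and these intervals cover at most counting error.

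Within P30 the Saa1 level was uneven. The 4 stretches had 2514, 3537, 963 and 933 CPM, and the 4 P24 stretches 135.97, 255.4, 155.2 and 236.97 CPM. All P30 stretches were thus above all P24 stretches, while the first pair at P30 stood well above the second pair. P30 cells with exocrine RNA had 1740 CPM and those without 2472 CPM. Saa1 was at 447 CPM at P18 and 949 CPM at P60, so P24 was lower than the age before it and P30 higher than the age after it.

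Saa2, the neighbouring gene for a near-identical protein, was at 35.3 CPM at P24 and 831 CPM at P30, a log2 difference of 4.52. Its median over cells was 0 at P24 and 207.4 CPM at P30. At equal depth, with cells thinned to 124000 counts, 26.7% of P24 cells and 94.9% of P30 cells had a count. Saa3 was at 10.5 and 10.6 CPM and Saa4, the constitutive member, at 386 and 385 CPM. The family thus differed between ages in Saa1 and Saa2 and not past 2-fold in Saa3 or Saa4.

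Orosomucoid genes encode alpha-1-acid glycoprotein, a plasma carrier of basic and neutral lipophilic compounds. Orm1 ran from 0 through a median of 190 to 1692 CPM over the P24 cells and from 234.7 through 1903 to 4422 CPM over the P30 cells. Its pool levels were 362 and 1992 CPM, a log2 difference of 2.46. In the low spike-in class of P24 it was already at 627 CPM, against 236.8 CPM in the others, and the log2 difference to P30 was then 1.67 and 3.07. Orm2 was at 24.02 and 322.2 CPM, a log2 difference of 3.69, with a count in 45.5% and 100% of cells. Orm3 was at 9.21 and 12.3 CPM and did not pass 2-fold. At P60 Orm1 was at 1725 CPM and Orm2 at 79.1 CPM.

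Lcn2, the iron-scavenging lipocalin 2, was at 107.3 and 323.8 CPM (log2 1.58). The difference was 0.93 against the low spike-in class of P24, where Lcn2 was at 170 CPM. Pigr, the receptor that carries immunoglobulin A into bile, was at 189.1 and 538 CPM. Over the P30 cells the rank correlation (Spearman's rho) of Saa1 was 0.80 with Saa2, 0.71 with Orm1, 0.69 with Lcn2 and 0.65 with Hp. Over the P24 cells the values were 0.37, 0.43, 0.33 and 0.12. These cells share libraries and depth, and Saa1 and Saa2 may share reads, so the values are descriptions. Of 13 measured genes of interleukin-6 and NF-kB signalling, such as Stat3, Cebpb and Nfkbia, 0 passed 2-fold in either direction and the median was 0.02.

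Saa1 and Saa2 lie head to head on chromosome 7 and Orm2 in a cluster of Orm genes on chromosome 4 (GRCm38). Saa1 spans chr7:46740497-46742980 on the minus strand and Saa2 chr7:46751790-46754313 on the plus strand. Their upstream sequences are shown because the paired genes moved together. The genes are also so alike that the counting of shared reads between them is uncertain, which the upstream windows do not address. Saa2 starts a little farther downstream in RefSeq. Each sequence is the 250 bases before the RefSeq start, 5′ to 3′, from RefSeq on GRCm38, at chr7:46742981-46743230 (minus), chr7:46751583-46751832 (plus) and chr4:63362199-63362448 (plus). Capitals mark matches to TTGCNNAA, a form of the C/EBP motif, searched on both strands.
Saa1: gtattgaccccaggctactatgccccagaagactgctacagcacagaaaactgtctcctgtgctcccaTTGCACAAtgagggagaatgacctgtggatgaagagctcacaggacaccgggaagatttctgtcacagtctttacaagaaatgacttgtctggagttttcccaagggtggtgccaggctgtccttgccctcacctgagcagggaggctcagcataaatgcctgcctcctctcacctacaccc
Saa2: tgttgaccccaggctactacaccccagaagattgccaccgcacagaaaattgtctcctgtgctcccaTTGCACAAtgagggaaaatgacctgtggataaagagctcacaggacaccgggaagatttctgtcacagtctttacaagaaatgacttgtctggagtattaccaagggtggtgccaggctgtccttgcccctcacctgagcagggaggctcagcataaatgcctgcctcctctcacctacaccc
Orm2: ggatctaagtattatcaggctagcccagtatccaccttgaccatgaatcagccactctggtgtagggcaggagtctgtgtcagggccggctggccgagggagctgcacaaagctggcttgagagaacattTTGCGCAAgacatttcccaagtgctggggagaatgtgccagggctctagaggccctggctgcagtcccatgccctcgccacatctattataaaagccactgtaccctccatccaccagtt
The Saa1 and Saa2 windows are identical at 95.2% of positions when aligned with gaps, with 12 positions that differ. Each window holds 1 match. The motif occurs in a window of this length in 9.56% of 32851 promoters. It is also present in Saa3 and Orm3, neither of which passed 2-fold, and in Lcn2, which was higher at P30. Serpina1e and Cyp2c69, both lower at P30, hold it too. A match is only a match of letters.

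Genes of fatty acid synthesis were higher at P30. Of 20 measured members 10 (50%, against 1.74% of all measured genes) were past 2-fold higher and 0 lower, with a median log2 of 0.95. These 10 were apart over the stretches, as were 5 of the 6 acute phase genes, Lcn2 being the exception. The summed level of the list was 2611 CPM at P24 and 7203 CPM at P30, with P24 stretches between 1969 and 2917 CPM and P30 stretches between 6762 and 7809 CPM. Without cells with exocrine RNA the count was again 10 and the median 1.02.

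Scd1, stearoyl-CoA desaturase, introduces the first double bond into saturated fatty acids. It ran from 0 through a median of 39.8 to 1247 CPM over the P24 cells and from 818 through 2893 to 7771 CPM over the P30 cells. The lowest P30 cell lay above the P24 upper quartile of 101.9 CPM. The pool level was 94.6 CPM at P24 and 3030 CPM at P30, a log2 difference of 4.99 or 31.7-fold. The P24 stretches were at 53.1, 99.7, 144.3 and 82.1 CPM and the P30 stretches at 3539, 2765, 3356 and 2445 CPM. The P30 stretches of Scd1 thus lay closer to one another than those of Saa1. It was at 4.66 CPM at P18 and 1784 CPM at P60.

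The enzymes before Scd1 in the pathway moved less. Acly, which makes cytosolic acetyl-CoA from citrate, was at 71.3 and 228.8 CPM (log2 1.67). Acss2, which makes it from acetate, was at 51.8 and 185.3 CPM (1.82). Fasn, the fatty acid synthase itself, was at 100.3 and 348 CPM (1.79), with a P24 median of 83.7 and a P30 median of 328.6 CPM. The carboxylase on mitochondria, Acacb, was at 3.94 and 26.3 CPM (2.47), while its cytosolic counterpart Acaca was at 41.4 and 62.2 CPM (0.57) and did not pass 2-fold.

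Me1, which supplies NADPH, was at 55.6 and 150 CPM, and the elongases Elovl6 and Elovl5 at 54.6 and 152.4 CPM and at 138.002 and 327.2 CPM, respectively. Thrsp, a thyroid hormone-responsive gene of fat synthesis, was at 504 and 1085 CPM, a log2 of 1.10 that was 0.95 against the high spike-in class of P24, as Elovl5 was at 0.96. The regulators Srebf1 (102.6 and 120.8 CPM) and Mlxipl (73.9 and 71.8 CPM) did not pass 2-fold, nor did the triglyceride enzyme Dgat2 (578 and 496 CPM). The genes past 2-fold were thus part of the list, and some of its enzymes, such as Acaca and Dgat2, were not among them.

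Cholesterol synthesis leaned the same way with smaller values. Of 24 measured members 23 lay above 0, but 4 (16.7%, against 1.74% of all measured genes) passed 2-fold: Mvd, Pmvk, Nsdhl and Fdps, at log2 1.07, 1.04, 1.04 and 1.01. The median was 0.57. These calls depended on which P24 cells were used: 18 of the 24 passed against the low spike-in class (median 1.501) and 0 against the others (median 0.36). Higher calls over all genes were 2.06 times as many against the low class and 0.923 times against the others. Nsdhl was at 0.81 without cells with exocrine RNA.

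**Figure D3:**
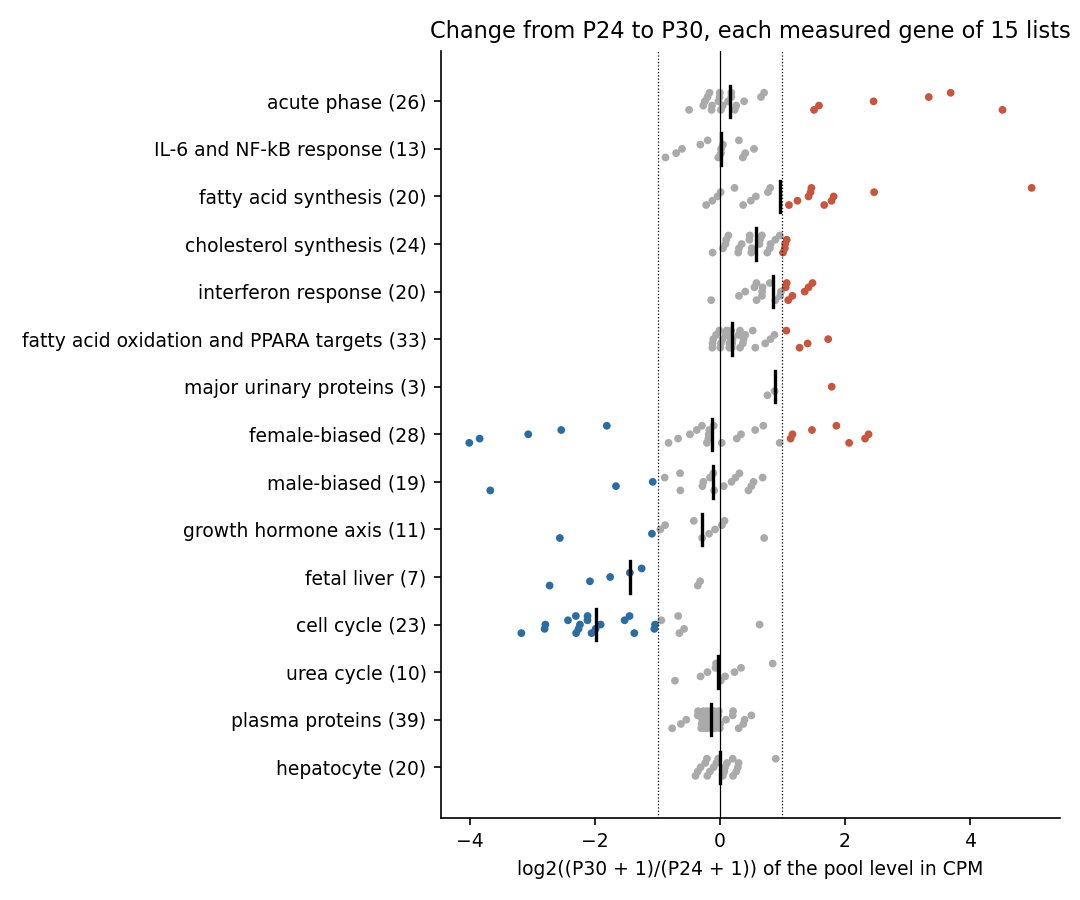
Log2 difference of the pool level between P24 and P30 for each measured gene (1 point) of 15 lists, with the number of measured genes in brackets. Black bars are list medians and dotted lines mark 2-fold. Fatty acid synthesis and the interferon response lie to the right, fetal liver and cell cycle to the left, and the acute phase list has 6 points far to the right of a group near 0.

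Cd36 and Ces1f were among the largest rises once the exocrine genes are set aside, an order taken after the values were seen. Cd36, a fatty acid translocase, was at 5.54 and 51.4 CPM (log2 3.00), with a count in 32.6% and 83.7% of cells. Ces1f, a carboxylesterase that hydrolyses lipid esters, was at 32.4 and 268.2 CPM (3.01). Plin2, which coats lipid droplets, was at 215.2 and 450 CPM, with every P24 stretch between 200.5 and 241.2 CPM and every P30 stretch between 433 and 475 CPM. Of 33 measured genes of fatty acid oxidation and PPARA targets 4 (12.1%, against 1.74% of all measured genes) passed 2-fold higher and 0 lower: Acot1, Acot2, Ehhadh and Plin2. The median of the 33 was 0.19. Acot2 was at a log2 of 0.99 without cells with exocrine RNA.

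Glucose handling showed a few single genes. G6pc, the glucose-6-phosphatase that releases glucose from the liver, was at 232.1 and 937 CPM (log2 2.01), and 431 CPM in the low spike-in class of P24, against which the difference was 1.12. Ppp1r3g, a glycogen-targeting subunit of protein phosphatase 1, was at 1.89 and 20.8 CPM. Txnip, a glucose-responsive thioredoxin inhibitor, was at 30.1 and 130.99 CPM, but its P30 stretches were at 25.3, 34.7, 246.7 and 220 CPM and overlapped those of P24 (6.93 to 60.8 CPM), and it was at a log2 of 0.91 against the low spike-in class. Of 26 measured genes of gluconeogenesis and amino acid breakdown only G6pc passed 2-fold, and Pck1 was at 1309 and 2210 CPM. None of the 18 measured genes of sugar breakdown and none of the 10 of the urea cycle passed.

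Interferon-induced genes leaned higher at P30. Of 20 measured members 19 lay above 0, 7 (35%, against 1.74% of all measured genes) passed 2-fold and 0 passed lower, with a median of 0.84. Psmb9, a subunit of the immunoproteasome, was at 24.1 and 63.1 CPM, Ifi27 at 83.4 and 224.5 CPM, and Irf7, a regulator of the response, at 14.0 and 30.9 CPM. The count was 14 against the low spike-in class of P24 and 2 against the others (medians 1.38 and 0.57). For all genes the higher calls were 2.06 and 0.923 times as many, respectively. Cxcl9, an interferon-gamma-induced chemokine, was at 1.48 and 22.5 CPM, with a count in 37.04% of P30 cells and a highest cell of 1500 CPM.

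Drug metabolism genes gave 6 of 58 measured members past 2-fold higher and 0 lower, with a median of 0.12. Among all measured genes 1.74% were higher and 1.38% lower. Aldh1a1, which oxidises retinaldehyde, was at 307.6 and 916 CPM, with P24 stretches from 252.8 to 369 CPM and P30 stretches from 782 to 1110 CPM. The glutathione transferase Gstm3 was at 61.4 and 210.5 CPM and Aldh1a7 at 65.6 and 199.4 CPM. The other 3 of the 6 were Ces1f, Gstm2 and Gstm6.

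Major urinary proteins (Mup) are pheromone carriers secreted by the liver into urine, mainly in adult males. Only Mup3, Mup20 and Mup2 were measured, of 21 Mup genes looked up. Mup3 ran from 2.63 through a median of 429 to 5753 CPM over the P24 cells and from 85.9 through 1124 to 7492 CPM over the P30 cells. Its pool level was 817 CPM at P24 and 1498 CPM at P30, 1.83-fold, short of the 2-fold threshold. The log2 difference of 0.87 was 0.43 against the low and 1.14 against the high spike-in class of P24. Mup20, which encodes the male pheromone darcin, was at 143.8 and 499 CPM (log2 1.79), with a count in 74.2% and 98.5% of cells. Both were far higher at P60, Mup3 at 10580 CPM and Mup20 at 7277 CPM. Mup1 was at 1.01 CPM at P24, 1.07 CPM at P30 and 423 CPM at P60. Reads shared by these near-identical genes make the member uncertain, and the same holds for close relatives in the Cyp2c family.

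Genes known to differ between the sexes moved both ways. Of 28 measured female-biased genes 7 (25%) were past 2-fold higher and 5 (17.9%) lower. Of 19 measured male-biased genes, a list without the Mup genes, 0 were higher and 3 (15.8%) lower. Over all measured genes the shares were 1.74% higher and 1.38% lower. Against the low spike-in class of P24 the female-biased count was 11 higher and 5 lower (median 0.63) and the male-biased count 2 higher and 5 lower. Against the high class they were 5 and 5 (median -0.38) and 0 and 2. For all genes, higher calls were 2.06 times and lower calls 1.35 times as many against the low class. Against the high class those ratios were 0.923 and 1.31. Among the lower female-biased genes were Cyp2c69, Cyp3a44, Cyp2c40 and A1bg. The higher ones were Cyp2a4, Acot3, Cyp2b10, Cyp2c38, Cyp2b13, Ntrk2 and Hamp2. Against the high spike-in class of P24, Cyp2b13 was at a log2 of 0.99 and Ntrk2 at 0.80. Hamp2 did not pass 2-fold against the low spike-in class of P24 (log2 0.23) or without cells with exocrine RNA (0.97): it was at 1820 CPM in the low spike-in class of P24 and 2134 CPM at P30.

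Cyp2c69 ran from 0 through a median of 50 to 1613 CPM over the P24 cells and from 0 through 0 to 280.7 CPM over the P30 cells. The pool levels were 227.4 and 13.2 CPM, a log2 difference of -4.01. At P24 the stretches were at 473, 7.25, 98.9 and 330 CPM, and at P30 between 6.55 and 17.7 CPM. The second P24 stretch thus lay at the P30 level. Cyp2c40 was likewise lowest in the second P24 stretch, with 427, 32.1, 210 and 738 CPM at P24 and 33.7 to 45.7 CPM at P30. Cyp3a44 was at 45.6 and 2.24 CPM, its P24 stretches all above those of P30. At P60 Cyp2c69 was at 21.7 CPM and Cyp3a44 at 1.39 CPM.

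Serpina1e, a male-biased antitrypsin gene, was the largest fall among male-biased genes. It ran from 5.99 through 204.4 to 7499 CPM over the P24 cells and from 0 through 23.3 to 751 CPM over the P30 cells, and the pool levels were 754 and 58.1 CPM (log2 -3.68). Its P24 stretches were at 1694, 116.4, 213.9 and 986 CPM and its P30 stretches at 38.1, 63.97, 31.6 and 99.8 CPM. Serpina1e was at 235.8 CPM at P18 and 4563 CPM at P60, above P30 at both. Selenbp2 and Slco1a1 were at 148.8 and 46.2 CPM and at 24.2 and 10.9 CPM, and Slco1a1 was at a log2 of -0.53 against the high spike-in class of P24. Over the P24 cells Serpina1e had a rank correlation of 0.56 with Cyp2c69, 0.56 with Cyp2c40 and 0.55 with Id3, and over the P30 cells -0.05, -0.08 and 0.02.

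Growth hormone signalling had a few lower genes. Of 11 measured members 2 (18.2%, against 1.38% of all measured genes) were past 2-fold lower and 0 higher. Socs2, a feedback inhibitor induced by growth hormone through STAT5, was at 24.3 and 3.28 CPM (log2 -2.56), and at 22.6 CPM at P60. Onecut1 was at 17.2 and 7.56 CPM, a log2 of -1.09 that was -0.84 against the high spike-in class of P24. Igf1, the main growth hormone target secreted by the liver, was at 825 and 425 CPM (-0.95) and did not pass, with P24 stretches at 1146, 486, 599.7 and 1070 CPM and P30 stretches between 412 and 445 CPM. The receptor gene Ghr was at 401 and 422 CPM and did not pass either.

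**Figure D4:**
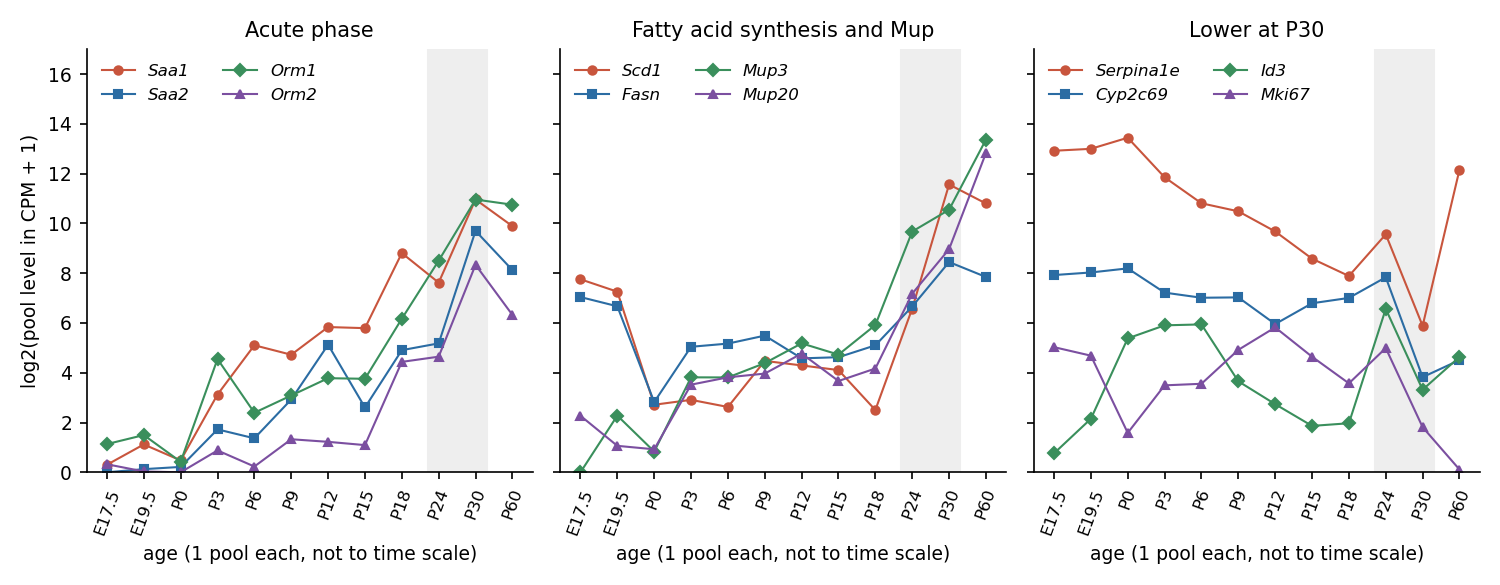
Pool level over the 12 ages as log2(CPM + 1), 1 pool per age, with P24 and P30 shaded; ages are evenly spaced and not to time scale. The 4 acute phase genes and Scd1 peak at P30, Mup3 and Mup20 are highest at P60, and Serpina1e falls at P30 and is high again at P60.

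Cell cycle genes were the list with the most falls. Of 37 listed genes 23 were measured, and some, such as Mki67, only through their P24 level, so the share of falls is partly set by the floor. Of the 23 measured, 18 (78.3%, against 1.38% of all measured genes) were past 2-fold lower and 0 higher, with a median of -1.99. Mki67, a marker of cycling cells, was at 30.8 and 2.51 CPM (log2 -3.18), Top2a at 32.6 and 3.85 CPM and the survivin gene Birc5 at 40.0 and 4.85 CPM. Ccnd1, a cyclin of the G1 phase, went the other way without passing, at 27.7 and 43.5 CPM. Of 18 lower genes 8 were apart over the stretches, and 12 of the 23 members passed against the low spike-in class of P24. Lower calls over all genes were 1.35 times as many against that class.

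These levels came from a minority of cells. Mki67 had a count in 30.3% of P24 cells (exact 95% interval 23.7 to 37.7%) and 10.4% of P30 cells (5.79 to 16.8%), and its median was 0 at both ages. At 124000 counts per cell, 24 P24 cells (14.5% of those kept, exact interval 9.55 to 20.9%) had a count in at least 5 of 8 cell cycle genes and 2 P30 cells (1.71%, 0.208 to 6.04%). The cells of an age are 1 pool, so these intervals are no comparison of the ages. Without the highest and lowest 10% of cells for each gene, 12 of the 23 genes were past 2-fold lower with a median of -1.06, and the replication genes Hist1h2ap and Esco2 were at -0.97 and -0.87. Top2a was at 78.1, 23.5, 15.4 and 12.7 CPM in the 4 P24 stretches.

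Fetal liver genes were lower at P30. Of 18 listed genes 7 were measured, and some, such as Gpc3, only through their P24 level, so the share of falls is partly set by the floor. Of the 7 measured, 5 (71.4%, against 1.38% of all measured genes) were past 2-fold lower: Gpc3, a glypican of fetal hepatocytes, H19, Peg3, Igf2bp3 and Afp. Gpc3 was at 13.6 and 1.21 CPM, with P24 stretches between 12.2 and 16.0 CPM and P30 stretches between 0.130 and 2.72 CPM. Its level had been 629 CPM at P0. H19, an imprinted noncoding RNA, was at 31.9 and 6.79 CPM. Afp, the fetal counterpart of albumin, was at 52.5 and 21.4 CPM, but at P30 its stretches were at 1.98, 46.1, 4.15 and 33.9 CPM, and in the P30 cells without exocrine RNA its level was 43.9 CPM, a log2 of -0.07 to the P24 cells without it.

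Id3 and Id1 were among the larger falls. These targets of BMP signalling, inhibitors of basic helix-loop-helix factors, were at 93.7 and 8.98 CPM (log2 -3.25) and at 36.5 and 8.86 CPM (-1.93), respectively. Id3 was at 139.3, 17.96, 56.5 and 161.5 CPM in the P24 stretches and between 4.15 and 13.5 CPM at P30, and it was at 2.92 CPM at P18. Hes1, a target of Notch signalling, was at 80.3 and 21.1 CPM, with P30 stretches at 2.46, 2.60, 40.2 and 39.6 CPM. Smad7, an inhibitor of BMP and TGF-beta signalling, was at 10.0 and 3.10 CPM. The iron hormone Hamp, another BMP target, was at 886 and 526 CPM and did not pass, with 2091 CPM in the low spike-in class of P24 and 319.2 CPM in the others. In a list of transcription factors that does not hold Hes1, 37 were measured. Of these 2 (5.41%, against 1.38% of all measured genes) passed lower and 0 higher: Foxa2 at 31.4 and 11.97 CPM, and Onecut1.

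Globin RNAs headed the falls. Hbb-bs was at 171.03 CPM at P24 and 6.39 CPM at P30 (log2 -4.54), but its P24 median was 7.38 CPM and its highest cell 20276 CPM. The summed globin level was over 1000 CPM in 2 P24 cells, and the mean of the other P24 cells was 53.6 CPM against 21.7 CPM at P30. Of the other erythroid markers Klf1 was at 5.98 and 5.58 CPM, and Gata1 and Hemgn had 0 counts at both ages.

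Markers of other liver cells were low at both ages. None of 14 macrophage genes was measured, and their summed level was 53.8 CPM at P24 (stretches 34.4 to 91.4) and 9.68 CPM at P30 (1.22 to 14.2). The 14 stellate genes summed to 24.04 and 6.96 CPM and the 15 endothelial genes to 98.38 and 90.004 CPM, of which Dpp4, also made by hepatocytes, gave 74.3 and 72.7 CPM. Lymphocyte and neutrophil genes summed to less than 1 CPM at both ages. In the cholangiocyte list Spp1, osteopontin, went from 1.88 to 41.9 CPM, with 56.6 CPM in P30 cells with exocrine RNA and 14.5 CPM in the others, while Krt19, a defining cholangiocyte keratin, had 0 counts at P24 and 1.33 CPM at P30, all of it in cells with exocrine RNA. The part of these RNAs, of the exocrine RNAs and of the spike-in classes in the differences above was not tested.

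Detection per cell was compared after thinning each cell to 124000 counts, which left out 13 P24 and 18 P30 cells. A count appeared in at least 20 percentage points more P30 cells for 2.99% of measured genes and in fewer for 0.465%. Of the higher genes 62.7% were among the first, and of the lower genes 28.3% among the second. Acacb went from 21.8% to 85.5% of cells, Gas6, a ligand of TAM receptors, from 33.3% to 88.9%, and Gpc3 from 60.6% to 14.5%. Without thinning, which leaves the P24 cells deeper, the first count was 0.652 times as large.

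Within each age the moving genes followed the lobule axis to different degrees. Cyp2e1 marks cells near the central vein and Cyp2f2 cells near the portal vein, and their rank correlation was -0.78 over the P24 cells and -0.80 over the P30 cells. At P30 Scd1 had 0.62 with Cyp2e1 and -0.67 with Cyp2f2, while Acly had -0.70 and 0.59. Scd1 and Acly, enzymes of 1 pathway, thus had opposite signs along the axis. Weaker values at P30 were those of Fasn, 0.36 and -0.38, on the side of Scd1, and of Thrsp, -0.27 and 0.33, on the side of Acly. At P24 the Scd1 values were 0.23 and -0.15 and the Acly values -0.57 and 0.57. At P30 Saa1 had -0.50 with Cyp2e1 and 0.42 with Cyp2f2, Orm1 -0.59 and 0.46, and Mup3 -0.59 and 0.47. Aldh1a1 had 0.80 and -0.76. These are descriptions over cells that share libraries and depth.

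The zonation lists had medians near 0. Of 29 measured pericentral genes 2 (6.90%) were past 2-fold higher and of 31 periportal genes 2 (6.45%), against 1.74% of all measured genes, with 0 lower in both and medians of 0.03 and 0.12. Against the low spike-in class of P24, 6 pericentral and 7 periportal genes were higher and 1 of each lower. All genes together then gave 2.06 times the higher and 1.35 times the lower calls. Plasma protein genes (39 measured) and lipoprotein genes (19) had 0 past 2-fold and medians of -0.14 and -0.12. Of 19 measured clock genes 2 (10.5%, against 1.38% of all measured genes) passed lower, Per3 (40.0 and 14.3 CPM) and Cry1 (14.1 and 5.95 CPM). However, Per3 was at a log2 of -0.33 against the low and Cry1 at -0.75 against the high spike-in class of P24. The time of day of collection is not in the labels used here.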

How the data were processed

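The table compared here gives, for each gene symbol and cell, a whole-number count that the authors deposited without recorded scaling. Tools named per the submitters' processing notes, with no role or order, are featureCounts 1.5.3 and 2.0.0, HISAT2 2.1.0, HTSeq 0.6.0, SAMtools 1.3.1, TopHat2 2.1.0, Trimmomatic 0.39 and UMI-tools 0.5.0. The builds they name are GRCm38 and mm10. Whether counts are reads or molecules, and whether strand was used, is not given in the sources used here. Poisson intervals on summed counts cover at most counting error and may be too narrow if the counts are reads. Intervals on shares of cells treat the cells as independent draws from the pool.

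The 178 P24 and 135 P30 cells (313) were used without a filter, and no cell had the same counts as another. The 92 ERCC rows were dropped, leaving 40824 genes, and each cell was scaled to CPM. No animal is named in the labels, so each age was 1 pool and no test was made. Calls at 2-fold, with a pseudocount of 1 CPM, numbered 142 higher and 113 lower genes. Shares used 165 P24 and 117 P30 cells thinned to 124000 counts, the 10th percentile of totals rounded down, and a difference of 20 percentage points gave 244 genes seen in more and 38 in fewer P30 cells. TMM factors came from edgeR 4.0.16 and size factors from DESeq2 1.42.0 (R 4.3.3), as alternatives only. The fold calling was tested on simulated cells drawn from the same profile within each age. Those cells had no spread beyond counting and no blocks, so the test covers the arithmetic and not the calls in these data. No doublet caller was run on these singly picked cells. P60 is represented by 58 of its cells, and 468 columns of the table were not used.

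Genes named are the 15 largest rises and 15 largest falls past 2-fold by both the mean over cells and the summed counts, without predicted genes, up to 4 called members of each list, Saa1, Mup3 and their families, and markers of other cell types. Some genes are not reported here. Other members are named to describe their list, and the order without exocrine RNA was chosen after the values were seen. The members and lists were chosen with earlier results of these data known. Gene coordinates are from GENCODE M21.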

Additional observations from a re-analysis of the deposited data

How the results depend on the processing

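Counts of called genes are given as ratios to the count reported. The count of higher genes was 0.585 times as large with a floor of 20 CPM and 2.06 times against only the low spike-in class of P24. The count of lower genes was 0.655 times as large with a pseudocount of 5 CPM, 0.549 times with the highest and lowest 10% of cells left out for each gene, 1.85 times with a floor of 1 CPM and 0.398 times with a floor of 20 CPM. The count of genes seen in more P30 cells was 0.652 times as large without thinning. Higher genes were 55.7% of all calls, 70.05% with the highest and lowest cells left out, and a minority in 3 settings: 46.9% without cells with exocrine RNA, 46.95% against only the high spike-in class and 47.75% with a floor of 1 CPM. Without cells with exocrine RNA, a setting chosen after seeing the data as were the spike-in classes, 8 exocrine genes changed sign: Try4 (-0.018), Clps (-0.34), Prss2 (-0.29), Ctrb1 (-0.43), Cpa1 (-0.024), Sycn (-0.069), Cel (-0.18) and Zg16 (-0.030, all log2). The cells left out were defined by RNA of this kind, so those losses follow from the setting. The other settings left each of these 4 counts within 1.5 times its reported value, and the cause of the shifts in the counts was not tested. Over the settings the median of all measured genes stayed between -0.07 and 0.02. Of 86 named genes tallied over the settings 33 fell under 2-fold in at least 1 setting, 18 of them without cells with exocrine RNA, mostly exocrine genes. The 86 are not all the genes named above. Lcn2, Txnip, Elovl5, Cyp2b13, Ntrk2 and Afp are outside the tally and also fell under 2-fold in a setting. No paired analysis was possible because each age is 1 pool. With 1 pool per age no library or animal could be left out, genes with a mean level under 5 CPM were not called except with the floor of 1 CPM, and a fall carried by few cells, as in the cell cycle list, depends on how many such cells were picked.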

Other observations

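Among the cytochromes P450 of the Cyp2b family, Cyp2b10, an inducible P450, was at 4.05 and 20.2 CPM with a count in 23.6% and 63.7% of cells, while Cyp2b9 was at 184.7 and 222.6 CPM and did not pass 2-fold. Cyp2b13 was at 49.1 and 137.99 CPM, with 7.18 CPM in the low spike-in class of P24 and 68.9 CPM in the others. Cyp2a4 was at 31.1 and 165.8 CPM, but its median was 4.82 and 32.8 CPM and its highest cell 1146 and 2684 CPM.

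Genes of protein folding in the endoplasmic reticulum were slightly lower at P30. Of 25 measured members 24 lay below 0, against 4713 of all 8166 measured genes. The median was -0.30, against -0.05 over all measured genes. Creld2 alone (4%, against 1.38% of all measured genes) passed 2-fold, at 108.7 and 37.1 CPM, though not without cells with exocrine RNA (log2 -0.995). Against the low spike-in class of P24 the median was -0.63 and 4 passed, and against the others it was -0.06 and 0 passed. Lower calls over all genes were 1.35 and 1.31 times as many, respectively.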
